A study of Mus musculus with 8 samples.

Results

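The CC chemokine ligands measured here are 10 of the 23413 gene symbols counted in tumor-associated macrophages (TAMs): Ccl2, Ccl7, Ccl8 and Ccl12, then Ccl3 and Ccl4, then Ccl6 and Ccl9, and Ccl5 and Ccl24. They were chosen by gene name, as rows of the count table, with earlier results of these data known. The TAMs came from B16F10 melanomas, a transplantable mouse tumor line, grown under the skin of male C57BL/6 mice that were 8 to 10 weeks old at the start. In the DMSO group 2 mice received the vehicle, in the IP group 4 mice received thiostrepton, a thiopeptide antibiotic, into the peritoneal cavity, and in the IS group 2 mice received it beside the tumor at 20 mg/kg (the route that the study calls S.C.). The study used more than 1 IP dose and gave vehicle by either route, and its text does not say which of these applied to the sequenced mice. All mice bore the tumor and were treated on days 6 and 12, and on day 18 the cells carrying CD45, F4/80 and CD11b but not Gr-1 were sorted from each mouse into 1 RNA-seq library.

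Chemokines are small secreted proteins that guide migrating leukocytes through receptors coupled to G proteins, and in the CC family the first cysteines of the protein stand side by side. Ccl2, Ccl7, Ccl8 and Ccl12 are the monocyte chemoattractant proteins (MCP) of the mouse, of which Ccl2, Ccl7 and Ccl12 act on Ccr2, the receptor that brings monocytes out of the bone marrow. Ccl3 and Ccl4 are the macrophage inflammatory proteins MIP-1α and MIP-1β, which attract monocytes, macrophages and T cells, and Ccl3 acts on Ccr1 among other receptors. Ccl6 and Ccl9 are rodent ligands of Ccr1, Ccl5 (RANTES) attracts T cells and monocytes through receptors that include Ccr1 and Ccr3, and Ccl24 (eotaxin-2) attracts eosinophils through Ccr3. In tumors, TAMs are both a source of these ligands and descendants of the monocytes that some of them recruit.

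The ligands lie in 2 clusters on mouse chromosome 11 (GRCm38, which is mm10), apart from Ccl24 on chromosome 5. The MCP genes Ccl2 (chr11:82035571-82037453), Ccl7 (chr11:82045712-82047525), Ccl12 (chr11:82101845-82103400) and Ccl8 (chr11:82115185-82116799), all on the plus strand, fill a stretch of 81229 bp. The other cluster starts 1408978 bp further along and holds Ccl5 (chr11:83525778-83530518), Ccl9 (chr11:83572919-83578636), Ccl6 (chr11:83587882-83593087) and Ccl3 (chr11:83647844-83649355) on the minus strand and Ccl4 (chr11:83662584-83664683) on the plus strand. Ccl24 is at chr5:135569937-135573049 on the minus strand. The positions span whole genes of the GENCODE vM21 annotation, from the first to the last exon. Gm17268 overlaps Ccl2 on the opposite strand and E230016K23Rik overlaps Ccl6 on the opposite strand, so that some reads of either pair could belong to the partner.

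Promoter sequences from RefSeq (GRCm38.p6) were matched for 5 of the 10 members, Ccl12, Ccl8, Ccl9, Ccl6 and Ccl3. Shown here are the 250 bases before the start of Ccl12 (chr11:82101595-82101844, plus strand) and Ccl8 (chr11:82114935-82115184, plus strand), which are neighbours in the MCP cluster, and of Ccl3 (chr11:83649379-83649628, minus strand) as a member of the other cluster. The windows lie before the RefSeq start, which for Ccl3 is upstream of the first exon in GENCODE, so its window does not adjoin the gene as positioned here. They read 5′ to 3′ in the direction of the gene, and capitals mark the matches to the motifs searched.
Ccl12: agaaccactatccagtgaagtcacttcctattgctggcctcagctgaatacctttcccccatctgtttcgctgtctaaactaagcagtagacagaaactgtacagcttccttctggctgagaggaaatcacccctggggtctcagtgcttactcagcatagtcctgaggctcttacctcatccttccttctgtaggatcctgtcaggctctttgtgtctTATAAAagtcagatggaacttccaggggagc
Ccl8: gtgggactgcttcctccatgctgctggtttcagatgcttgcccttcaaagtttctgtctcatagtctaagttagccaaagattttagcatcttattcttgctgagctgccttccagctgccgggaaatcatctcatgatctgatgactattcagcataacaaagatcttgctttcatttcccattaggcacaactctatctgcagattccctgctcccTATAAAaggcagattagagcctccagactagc
Ccl3: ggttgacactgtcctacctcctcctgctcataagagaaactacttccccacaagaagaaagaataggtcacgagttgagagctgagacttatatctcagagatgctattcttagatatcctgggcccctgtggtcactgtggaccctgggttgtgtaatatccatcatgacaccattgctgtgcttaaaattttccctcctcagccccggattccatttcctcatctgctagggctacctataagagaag
The motifs were the NF-kB consensus (by name), AP-1 (TGANTCA), the STAT site GAS (TTCNNNGAA), the TATA box (TATAAA), a PU.1 core (GAGGAAGT), C/EBP (TTGCNNAA) and an interferon-stimulated response element core (by name), 7 in all, read on both strands. TATAAA was found 31 to 26 bases before the start of Ccl12 and 32 to 27 bases before the start of Ccl8, and 12.4% of the 32851 RefSeq promoter windows of this length hold it somewhere. Ccl9 held 3 matches to TATAAA, a pair of them overlapping, with 1 match to AP-1 (53 to 47 bases before the start) and 1 to NF-kB (35 to 26 bases before the start). AP-1 was present in 6.75% of all windows and NF-kB in 7.25%. No motif of the 7 was found in the windows of Ccl3 and Ccl6. The shares of all windows were 7.02% for GAS, 2.44% for PU.1, 9.56% for C/EBP and 2.98% for the interferon-stimulated response element core. The longest run shared by any pair of the 5 windows was 13 bases in Ccl9 and Ccl6 (GCCCTCCACTTCC). It began 14 and 55 bases before their starts. Ccl12 and Ccl8 shared GGAAATCA, in both 128 bases before the start. Every pair but Ccl9 and Ccl6 had a longest shared run of 7 to 9 bases, so a run of 8 was not particular to Ccl12 and Ccl8.

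Between 14127506 and 17577466 reads were counted per mouse, and values are given as CPM, counts scaled to the size of the library, after TMM scaling over the 8 libraries, on which 3 counts correspond to 0.168 to 0.217 CPM. The sorted cells carried all 10 macrophage markers, with a summed level of 11980 to 19840 CPM. Markers of other cells that the gate or the tumor could hold were lower, and some of them were higher in the IS mice. The 9 measured neutrophil markers of 10 summed to 185.5 to 194.5 CPM in DMSO, 136.4 to 183.2 in IP and 286.9 to 494.6 in IS mice. The 10 T and NK cell markers summed to 1.91 to 12.6, 1.22 to 15.5 and 22.2 to 46.3 CPM in the same order, with Ncr1 and Klrd1 at 0 in both DMSO mice. The 8 melanocyte markers summed to 626.7 to 711.2, 480.8 to 1809 and 747.2 to 3001 CPM. The 8 dendritic cell markers summed to 2.48 to 8.44, 2.40 to 7.20 and 9.54 to 30.1 CPM, and the 8 fibroblast markers stayed at or under 1.32 CPM in all mice. By their mean correlation with the other libraries, IS mice 1 and 2 (0.833 and 0.846) and IP mouse 1 (0.866) stood apart from the other 5 (0.902 to 0.924). The running numbers in the labels put IP mouse 1 first, then the IS, the DMSO and the other IP mice, so apart from IP mouse 1 the order and the treatment cannot be told apart. The labels name no batch.

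In TAMs of DMSO mice the MCP ligands were the most abundant of the 10 when levels were divided by exon length. In CPM the highest mean was that of Ccl6, at 3239 ± 936 (SD, n = 2), beside 2655 ± 49.8 for Ccl7. Together the ligands made up 1.28% and 1.57% of all counts in DMSO mice 1 and 2. Per kilobase of exon, which allows levels of different genes to be compared, Ccl8 stood at 3560 ± 516 CPM (SD, n = 2), Ccl7 at 3315 ± 62.1 and Ccl12 at 3311 ± 570. The order of these 3 was within their spread, and all were above Ccl2 at 2324 ± 96.1. Ccl6 followed at 1805 ± 521 CPM per kilobase and Ccl4 at 467.5 ± 39.3. Ccl9 (291 ± 169) and Ccl3 (205.8 ± 33.2) overlapped each other. At the bottom Ccl24 (13.8 ± 15.2) and Ccl5 (9.22 ± 1.81) overlapped as well.

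**Figure D1:**
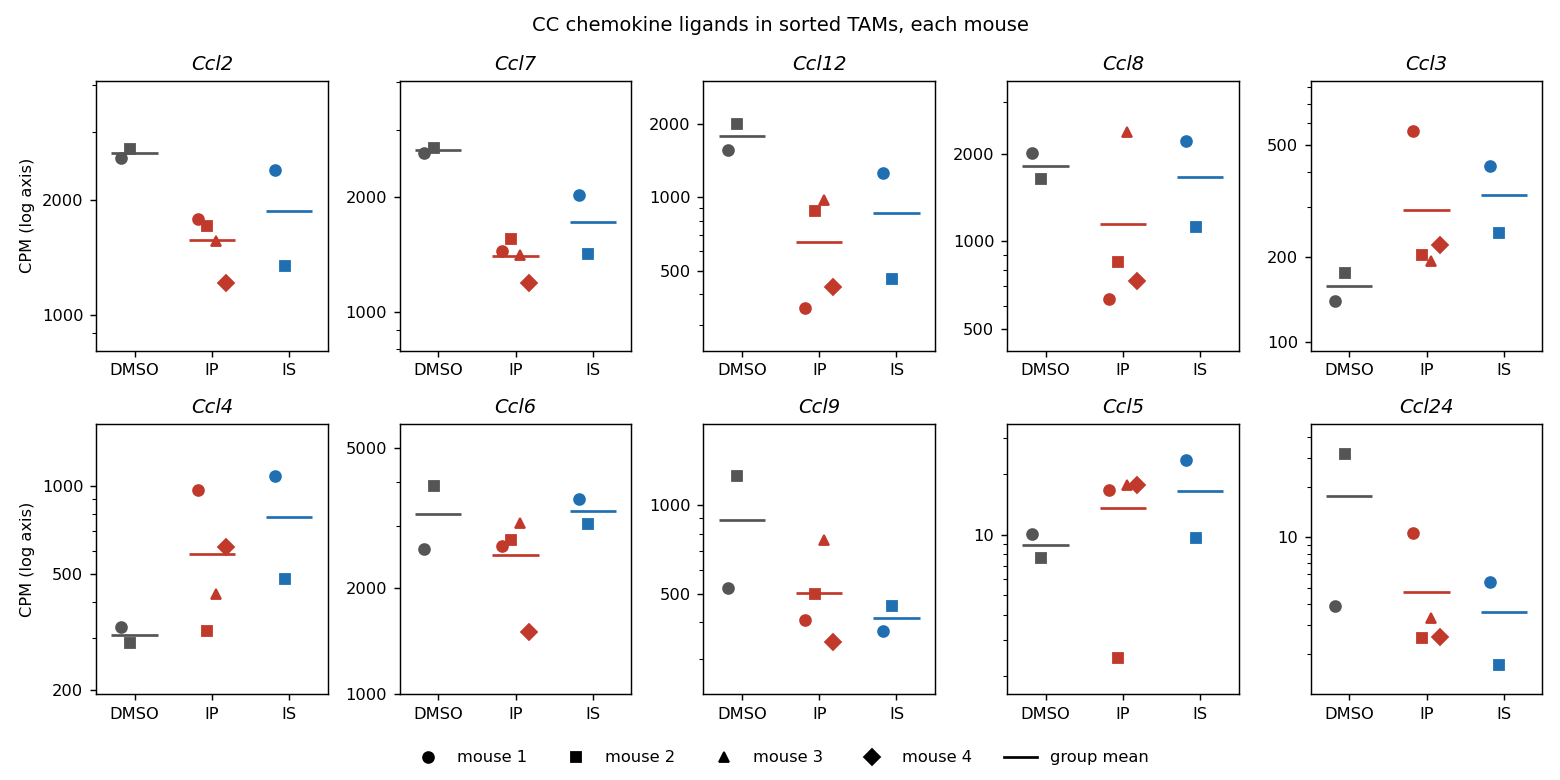
CPM of each ligand (log axis) in the 8 mice, with 1 point per mouse and a line at the group mean. Ccl2, Ccl7 and Ccl12 lie lower in all 4 IP and both IS mice than in either DMSO mouse, and Ccl3 lies higher in all 6.

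Of the 4 MCP ligands, Ccl2, Ccl7 and Ccl12 lay under both DMSO mice in every treated mouse and Ccl8 did not. Of all genes tested, 6.88% lay lower without overlap in the IP and 18.5% in the IS comparison. The share over both routes together was not computed. By the criterion given after the values, 1 of 4 (Ccl12) was called lower in the IP and 0 of 4 in the IS mice. Of all genes, 0.468% and 2.77% were called lower. Ccl2, the main monocyte attractant, stood at 2568 and 2723 CPM in the DMSO mice, at 1786, 1711, 1561 and 1212 in IP mice 1 to 4, and at 2400 and 1346 in IS mice 1 and 2. Ccl7, the MCP-3 that also acts on Ccr1 and Ccr3, stood at 2620 and 2690 CPM in the DMSO mice, at 1445, 1556, 1414 and 1190 in the IP mice and at 2030 and 1425 in the IS mice. For both genes every treated mouse lay under both DMSO mice, and IS mouse 1 was the treated mouse nearest to them. Ccl12, the mouse MCP-5, stood at 1562 and 1995 CPM in the DMSO mice, at 351.8, 873.2, 973.6 and 426.1 in the IP mice and at 1254 and 463.4 in the IS mice. Its groups did not overlap either, and its lowest values, in IP mice 1 and 4 and IS mouse 2, lay well apart from the other treated mice. Ccl8, the MCP-2, stood at 2005 and 1632 CPM in the DMSO mice, at 631.9, 846.9, 2364 and 732.9 in the IP mice and at 2208 and 1122 in the IS mice. Here IP mouse 3 and IS mouse 1 were above both DMSO mice, and the other 4 treated mice were below them.

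A gene was called changed by the study's own criterion, an unadjusted P under 0.05 with at least a 2-fold change, in edgeR's quasi-likelihood test fitted on all genes. In the IP mice Ccl12 fell by 1.44 on the log2 scale (SE 0.42, 95% interval -2.39 to -0.48, 2.71-fold lower). Ccl7 was lower with a log2 difference of -0.93 (SE 0.22, interval -1.42 to -0.43) and Ccl2 with -0.76 (SE 0.24, interval -1.30 to -0.22). Both had an unadjusted P under 0.05 but were under the 2-fold limit, so neither was called. Ccl8 had -0.67 (SE 0.52, interval -1.84 to 0.51). Thus 1 of 4 MCP genes was called and 3 had an unadjusted P under 0.05, and the median log2 difference was -0.84 against 0.02 over all 12174 genes tested. Of all genes, 2.0% were called in this comparison (0.468% in the lower direction) and 3.43% had an unadjusted P under 0.05. The call of Ccl12 was lost without DMSO mouse 2 (log2 difference -1.25, with an unadjusted P no longer under 0.05). Without IP mouse 3, Ccl8 had -1.32 and was called lower.

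In the IS mice none of the 4 MCP genes was called, against 5.06% of the 11680 genes tested (2.77% in the lower direction). Ccl12 had a log2 difference from DMSO of -1.05 (SE 0.52, 95% interval -2.34 to 0.24), Ccl7 of -0.62 (SE 0.32, interval -1.42 to 0.18), Ccl2 of -0.50 (SE 0.38, interval -1.43 to 0.44) and Ccl8 of -0.13 (SE 0.41, interval -1.15 to 0.90). Without DMSO mouse 1, Ccl12 had -1.23 and was called. The median over the 4 was -0.56, against 0.02 over all genes. IS mouse 1, the library with the highest melanocyte marker sum (3001 CPM), held the higher value of each MCP gene. Without it Ccl12 stood at -1.95 and was called in a fit that takes the lone IS mouse to vary like the DMSO mice. That fit also called 2989 of 12210 genes, and the part of the melanocyte signal in this was not tested. IP mouse 4, which had the highest melanocyte sum of its group (1809 CPM), held the lowest Ccl2 and Ccl7 of the IP mice. The lowest Ccl8 and Ccl12 of that group (631.9 and 351.8 CPM) were in IP mouse 1, whose melanocyte sum was 546.8 CPM.

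Ccl3 and Ccl4, the MIP-1 ligands, differed in the other direction. Ccl3 stood at 139.7 and 175.6 CPM in the DMSO mice, at 561.5, 203.4, 194.5 and 220.6 in the IP mice, and at 421.9 and 244 in the IS mice. All 6 treated mice lay above both DMSO mice, but IP mice 2, 3 and 4 only just, at 206.2 ± 13.3 CPM (SD, n = 3) without IP mouse 1. Ccl4 stood at 326.9 and 290.2 CPM in the DMSO mice, at 966.2, 317.8, 425.7 and 616.6 in the IP mice and at 1084 and 480.9 in the IS mice. Its groups did not overlap in the IS comparison, and in the IP comparison IP mouse 2 lay between the DMSO mice. Of all genes tested, 7.29% lay higher without overlap in the IP and 16.0% in the IS comparison.

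Both MIP-1 genes rose in the IS mice. The log2 difference was 1.08 for Ccl3 (SE 0.38, 95% interval 0.13 to 2.03, 2.11-fold) and 1.35 for Ccl4 (SE 0.45, interval 0.22 to 2.47, 2.54-fold), against a background of 2.29% of genes called higher. Without IS mouse 1 the values were 0.62 and 0.63 and neither was called. The call of Ccl3 was also lost without either DMSO mouse (0.91 without mouse 1 and 1.25 without mouse 2, with an unadjusted P above 0.05) and that of Ccl4 without DMSO mouse 2 (1.25). In the IP mice neither gene was called, against 1.53% of genes called higher. There the log2 difference was 0.90 (SE 0.47, 95% interval -0.16 to 1.96) for Ccl3 and 0.91 (SE 0.42, interval -0.05 to 1.87) for Ccl4. Without IP mouse 1 these were 0.38 and 0.55, and without IP mouse 2 Ccl4 had 1.12 and was called higher. Markers of other cells were called higher in IS against DMSO mice. For neutrophils these were 5 of 9 tested (S100a8, S100a9, Ngp, Ltf and Camp), but not Csf3r, Cxcr2 or Mmp8, the bulk of the sum. For T and NK cells it was 1 of 5 tested (Gzma), and for melanocytes 3 of 8 (Tyrp1, Dct and Sox10). No marker of these cells was called in IP against DMSO mice. In IS mice 1 and 2 the neutrophil markers summed to 286.9 and 494.6 CPM, the T and NK cell markers to 46.3 and 22.2 and the melanocyte markers to 3001 and 747.2. Their part in the rise of Ccl3 and Ccl4 was not tested.

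**Figure D2:**
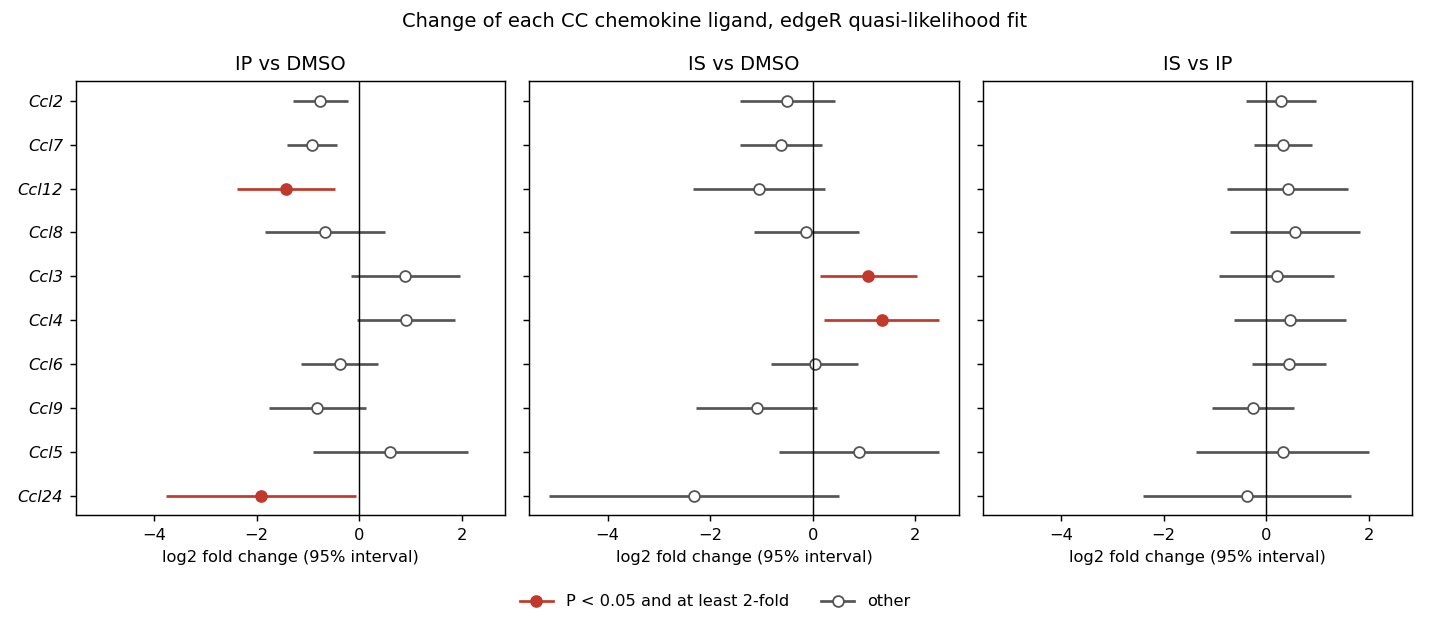
Log2 difference of each ligand in the 3 comparisons, with its 95% interval from edgeR's quasi-likelihood fit. Filled points met the criterion for a change, which holds for Ccl12 and Ccl24 in IP against DMSO mice, for Ccl3 and Ccl4 in IS against DMSO mice, and for no ligand in IS against IP mice.

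The make-up of the ligand pool was set out by mouse. Per kilobase, the sum of Ccl3 and Ccl4 over that of the 4 MCP genes was 0.0548 and 0.0528 in the DMSO mice. It was 0.417, 0.111, 0.0939 and 0.256 in IP mice 1 to 4 and 0.194 and 0.174 in the IS mice. All 6 treated mice lay above both DMSO mice, which nearly coincided, and the IP mice spread on both sides of the IS mice. Ccl2, Ccl7 and Ccl12 lay lower and Ccl3 higher in every treated mouse, so the ratio restates those values and is no separate result. As shares of the 10 ligands, the MCP genes held 84.3% and 79.4% in the DMSO mice, 57.9%, 73.4%, 76.9% and 68.6% in the IP mice and 72.2% and 67.5% in the IS mice. Ccl3 and Ccl4 held 4.62% and 4.20% in the DMSO mice, 24.2%, 8.14%, 7.22% and 17.5% in the IP mice and 14.02% and 11.7% in the IS mice. The shares sum to 100% within a mouse, so a lower share of one group raises the others. The 10 ligands were 0.832%, 0.897%, 1.09% and 0.638% of all counts in the IP mice and 1.29% and 0.806% in the IS mice, which put IS mouse 1 just above the lower DMSO mouse (1.28%). In sorted but bulk samples, fewer cells of a kind and less RNA per cell cannot be told apart.

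**Figure D3:**
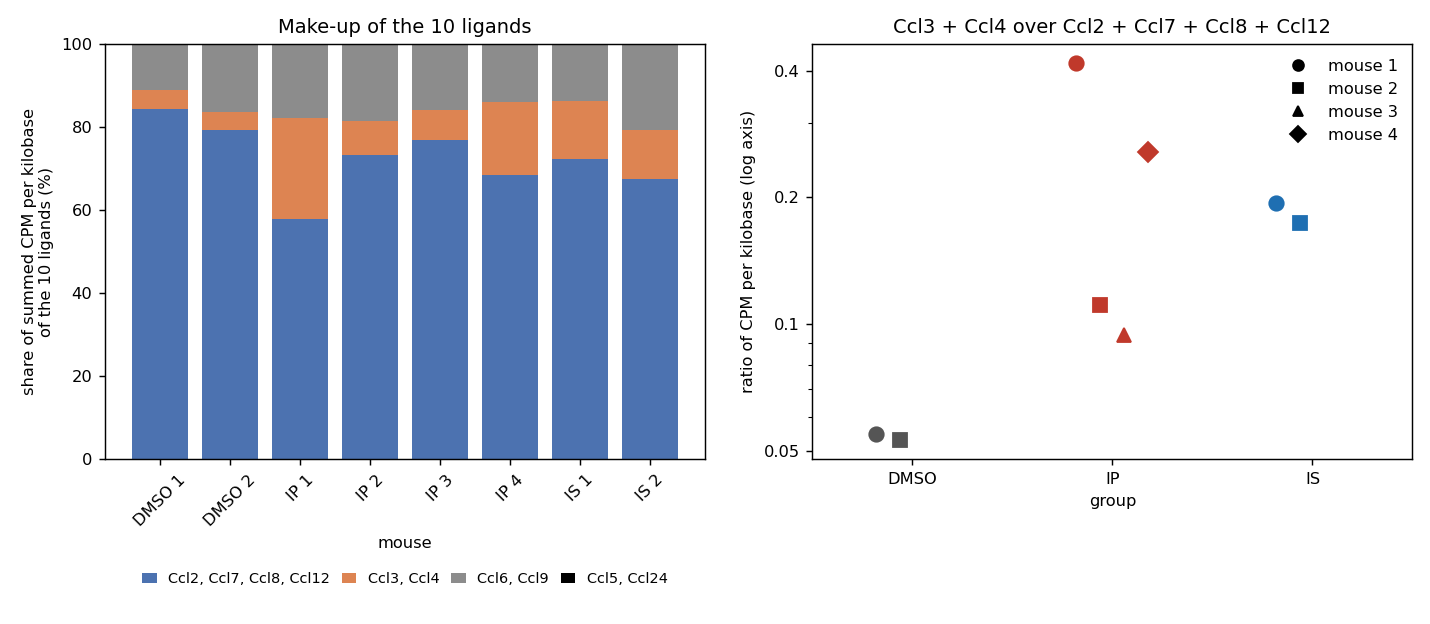
Left, share of each ligand group in the summed CPM per kilobase of the 10 ligands, in percent, by mouse; Ccl5 and Ccl24 are too low to be seen. Right, CPM per kilobase of Ccl3 and Ccl4 over that of the 4 MCP genes (log axis), 1 point per mouse: both DMSO mice lie near 0.05 and all treated mice at 0.0939 or more.

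Within the MCP group, Ccl2 and Ccl7 kept a nearly fixed proportion, with a ratio of CPM between 0.945 and 1.24 in all 8 mice. Ccl12 departed from them. Its ratio to Ccl2 was 0.608 and 0.733 in the DMSO mice, 0.197, 0.510, 0.624 and 0.352 in the IP mice and 0.522 and 0.344 in the IS mice, so IP mouse 3 lay between the DMSO mice and the other 5 treated mice lay below them. For Ccl8 the ratio to Ccl2 was 0.781 and 0.600 in the DMSO mice. It was 0.354, 0.495, 1.51 and 0.605 in IP mice 1 to 4 and 0.920 and 0.833 in the IS mice. IP mice 1 and 2 thus lay below both DMSO mice. IP mouse 3, where Ccl8 was highest, and both IS mice lay above them, and IP mouse 4 lay between them.

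Ccl6 and Ccl9 differed from each other. Ccl6 stood at 2577 and 3901 CPM in the DMSO mice, at 2638, 2742, 3064 and 1498 in the IP mice and at 3593 and 3046 in the IS mice. The treated mice fell within the range of the DMSO mice, except IP mouse 4 below it. Its log2 difference was -0.38 in IP (SE 0.33, 95% interval -1.14 to 0.37) and 0.04 in IS mice (SE 0.34, interval -0.81 to 0.89), and the latter turned to -0.12 when libraries were scaled by their size alone. Ccl9 stood at 522.3 and 1251 CPM in the DMSO mice, at 407.2, 501.3, 759.6 and 343.7 in the IP mice and at 375.4 and 455.5 in the IS mice. Both IS mice and 3 of 4 IP mice lay under both DMSO mice, which themselves differed 2.40-fold. Neither comparison called Ccl9, with a log2 difference of -0.82 in IP (SE 0.41, 95% interval -1.76 to 0.12) and -1.09 in IS mice (SE 0.48, interval -2.27 to 0.09). Without DMSO mouse 2 these were -0.05 and -0.34, and without DMSO mouse 1 they were -1.31 and -1.60, and both were called lower. Ccl9 was also called without IP mouse 3 (-1.10) and, in IS mice, without IS mouse 2 (-1.27). The ratio of Ccl6 to Ccl9 was 4.94 and 3.12 in the DMSO mice, 4.03 to 6.48 in the IP mice and 9.57 and 6.69 in the IS mice. Of the 50-base windows along the exons of Ccl9, 1.97% occur in other genes too, against 0 for the other 9 ligands.

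Ccl24 and Ccl5 were the scarcest of the 10 ligands per kilobase in DMSO mice. Ccl24 was counted 57 and 550 times in the DMSO mice, 168, 41, 59 and 42 in the IP mice and 82 and 24 in the IS mice, or 3.88 and 31.8, then 10.6, 2.51, 3.31 and 2.52, then 5.40 and 1.73 CPM. DMSO mouse 2 stood far above all others, and IP mouse 1 and IS mouse 1 lay above DMSO mouse 1. The test called Ccl24 lower in the IP mice (log2 difference -1.92, SE 0.81, 95% interval -3.77 to -0.07). Without DMSO mouse 2 the difference was 0.29, so the call and its direction rested on that mouse, and the call was also lost without IP mouse 2 (-1.69), 3 (-1.79) or 4 (-1.71). In the IS mice Ccl24 had -2.32 (SE 1.14, 95% interval -5.15 to 0.52), and -0.13 without DMSO mouse 2, while it was called lower without DMSO mouse 1 (-3.16), IS mouse 1 (-3.37) or IS mouse 2 (-1.75). Ccl5 was counted 148 and 132 times in the DMSO mice, 263, 40, 313 and 292 in the IP mice and 355 and 133 in the IS mice, which is 10.1 and 7.62, then 16.6, 2.45, 17.5 and 17.5, then 23.4 and 9.61 CPM. IP mice 1, 3 and 4 lay above both DMSO mice and IP mouse 2 below both. Its log2 difference was 0.61 in IP (SE 0.67, 95% interval -0.91 to 2.12) and 0.90 in IS mice (SE 0.63, interval -0.67 to 2.47), and 1.38 with a call without IS mouse 2. Ccl5 is also made by T and NK cells, whose markers summed to 12.6 and 1.91 CPM in the DMSO mice, 1.83, 1.22, 15.5 and 2.82 in IP mice 1 to 4 and 46.3 and 22.2 in the IS mice. The part of those cells in Ccl5 was not tested.

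Counted over all 10 ligands, the IP comparison called 0 higher and 2 lower, against 2.0% of all genes called, and 4 had an unadjusted P under 0.05, against 3.43%. The IS comparison called 2 higher and 0 lower, against 5.06% of all genes, and the same 2 had an unadjusted P under 0.05, against 5.41% of all genes. All 4 IP mice lay beyond both DMSO mice in 4 of the 10 ligands (Ccl2, Ccl7 and Ccl12 lower, Ccl3 higher), against 14.2% of all genes (6.88% lower and 7.29% higher). Both IS mice lay beyond both DMSO mice in 6 (Ccl2, Ccl7, Ccl12 and Ccl9 lower, Ccl3 and Ccl4 higher), against 34.4% of all genes (18.5% lower and 16.0% higher). Both comparisons used the same 2 DMSO mice, so the shared directions are not independent. After adjustment over all genes tested by the Benjamini-Hochberg method, edgeR's quasi-likelihood test left 0 genes at an adjusted p under 0.05 in any comparison. At an unadjusted P under 0.05 there were 418 genes in IP against DMSO, 632 in IS against DMSO and 1049 in IS against IP mice. DESeq2 left 19, 107 and 234 genes at an adjusted p under 0.05. Among the ligands the edgeR quasi-likelihood adjusted p was 0.980 for each in the IP comparison, and in the IS comparison 0.812 for Ccl4, 0.842 for Ccl3 and at least 0.940 for the others. With DESeq2 Ccl7 in the IP comparison had an adjusted p of 0.0339.

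The IS and IP mice were also compared directly. The study gave a lower dose beside the tumor than by IP, so route and dose cannot be told apart here. No ligand was called between IS and IP mice, against 7.05% of 12206 genes (2.41% higher and 4.64% lower), and none had an unadjusted P under 0.05, against 8.59%. In 0 of the 10 did both IS mice lie beyond all 4 IP mice, against 18.5% of all genes (7.46% higher and 11.1% lower). All 10 log2 differences (IS minus IP) were between -0.38 and 0.57, with edgeR quasi-likelihood adjusted p from 0.784 to 0.954. The 95% intervals were -0.41 to 0.98 for Ccl2, -0.24 to 0.90 for Ccl7, -0.77 to 1.60 for Ccl12, -0.70 to 1.84 for Ccl8, -0.91 to 1.32 for Ccl3 and -0.64 to 1.55 for Ccl4. They reached -2.41 to 1.65 for Ccl24. The test does not show that the routes act alike. Without IS mouse 1 the difference turned negative for Ccl2 (-0.21), Ccl12 (-0.49), Ccl3 (-0.26), Ccl4 (-0.26) and Ccl5 (-0.48) and stood at -0.02 for Ccl8. Without IP mouse 3, Ccl8 was higher in IS mice by 1.18 and was called.

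Receptors that these ligands act on were read in the same libraries. Of 13 CC receptor genes considered, 6 were tested in the IP comparison. There 0 were called higher and 1 lower, against 1.53% and 0.468% of all genes. In the IS comparison 5 were tested, with 1 called higher and 0 lower, against 2.29% and 2.77% of all genes. Between IS and IP mice 6 were tested, with 3 called higher in IS mice (Ccr2, Ccr7 and Ccrl2) and 0 lower. There 2.41% and 4.64% of all genes were called. Ccr2, the receptor of Ccl2, Ccl7 and Ccl12, stood at 60.1 and 79.6 CPM in the DMSO mice, 12.6, 7.34, 13.0 and 20.7 in the IP mice and 59.5 and 76.1 in the IS mice. It fell by 2.39 on the log2 scale in the IP mice (SE 0.36, 95% interval -3.22 to -1.57, edgeR quasi-likelihood adjusted p = 0.751, edgeR likelihood ratio test adjusted p = 1.73e-05, DESeq2 adjusted p = 3.54e-05) and had -0.04 in the IS mice (SE 0.34). Between IS and IP mice Ccr2 differed by 2.37 (SE 0.40, interval 1.46 to 3.28), higher in IS. Its adjusted p there was 0.205 in edgeR's quasi-likelihood test, 0.000103 in the likelihood ratio test and 0.00013 with DESeq2. Its ligands Ccl2, Ccl7 and Ccl12, in contrast, lay under both DMSO mice in every mouse of either route. Ccr1, a receptor of Ccl3, Ccl5, Ccl6 and Ccl9, was not called in either comparison, at 317.9 and 359 CPM in the DMSO mice, 142.8 to 371.4 in the IP mice and 247 and 429.9 in the IS mice (log2 difference -0.32 in IP and 0.00 in IS mice). Ccr3, the receptor of Ccl24, Ccl5 and Ccl7, stood at 3.27 and 10.2 CPM in the DMSO mice, 0, 3.12, 3.75 and 0.600 in the IP mice and 2.04 and 4.84 in the IS mice. It was not called, with -1.84 in IP (SE 1.17, 95% interval -4.51 to 0.83) and -0.97 in IS mice (SE 0.94, interval -3.31 to 1.36). Ccrl2, an atypical receptor that binds chemerin rather than these ligands, rose in the IS mice (log2 difference 2.90, SE 0.49, edgeR quasi-likelihood adjusted p = 0.746). It went from 81.2 and 36.8 CPM in the DMSO mice to 376 and 505.8. In the IP mice Ccrl2 stood at 300.4, 60.1, 81.7 and 164.2 CPM and was not called (log2 difference 1.35, SE 0.65).

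**Figure D4:**
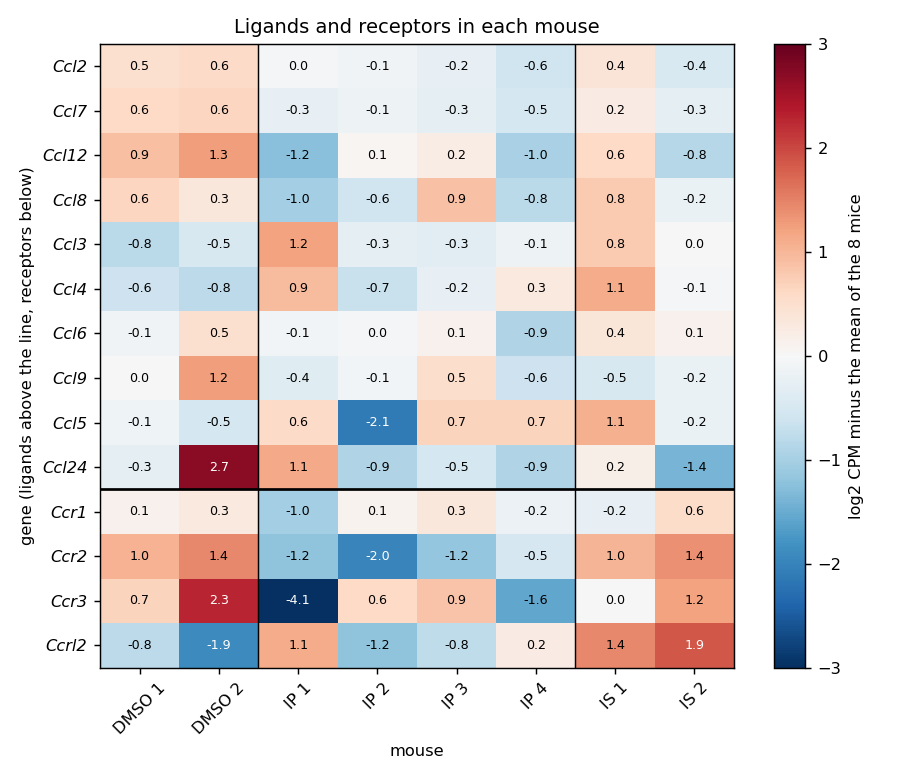
Log2 CPM of the 10 ligands and 4 receptors in each mouse, as the difference from the mean of the 8 mice, which are in columns; the colour scale ends at 3 in either direction. Ccl12 is high (0.91 and 1.26) in the DMSO mice and varies among the treated mice, and Ccr2 is low in the 4 IP mice only.

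Signalling below chemokine receptors was read from 20 genes (G protein subunits, phospholipases, kinases, arrestins and regulators). Of these, 0 were called in the IP comparison, against 2.0% of all genes. In the IS comparison 2 were called, both higher, against 5.06% of all genes (2.29% higher). The 2 were Rgs1 and Rgs2, which shut off signalling of G protein-coupled receptors. Rgs1 stood at 357.8 and 318.9 CPM in the DMSO mice, 956.6, 487.6, 544.3 and 722.6 in the IP mice and 787.5 and 950.9 in the IS mice, with a log2 difference of 1.36 in IS (SE 0.30) and 0.99 in IP mice (SE 0.31), the latter 1.99-fold and so just short of the limit. Rgs2 rose 3.99-fold in the IS mice (log2 SE 0.38), which held 189 and 318.7 CPM against 69.7 and 57.9 with DMSO. The IP mice held 306, 62.3, 91.7 and 86.5 CPM of Rgs2, a log2 difference of 1.09 (SE 0.62) that was not called. Of 14 other CC ligands with a row in the table, 2 were tested in each comparison with DMSO and 0 were called. Ccl11, which lies between Ccl7 and Ccl12 on the chromosome, had at most 0.115 CPM in any mouse, under the level of 3 counts, beside neighbours of at least 1562 CPM in the DMSO mice.

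The genes whose pattern over the 8 mice was most like that of each ligand group were found by the mean absolute difference of centred log2 CPM among 9315 genes. For the MCP group these were Hmgn2 (0.172), Alyref (0.185) and Apex1 (0.187), where the group's own mean deviation was 0.502. For Ccl3 and Ccl4 they were Crlf2 (0.139), Arid1a (0.149) and S100a1 (0.162), with an own deviation of 0.527. For Ccl6 and Ccl9 they were Mrps36 (0.150), Rap2c (0.154) and Tceal8 (0.161), with an own deviation of 0.299. The best of 9315 genes over 8 mice will be close by selection alone, and no test is attached.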

How the data were processed

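TAMs of 8 mice were sequenced, 1 library per mouse, and the sample labels gave each mouse its treatment. The authors aligned reads to mm10 and deposited whole-number counts per gene without normalization. The paper's methods name bowtie2 and RSEM, and the submitters' processing notes name TopHat2 and edgeR. The counts were tested with edgeR 4.0.16 (R 4.3.3). Genes were kept by filterByExpr (minimum count 10, minimum total 15) and scaled by TMM. For each comparison only its own groups entered the fit over all genes, with two-sided quasi-likelihood tests and Benjamini-Hochberg adjusted p. Standard errors are the log2 difference over the square root of F, and 95% intervals use the degrees of freedom of that test. Log2 CPM had a prior count of 2. Alternatives were other filters and scalings, edgeR's likelihood ratio test, DESeq2 1.42.0, a joint fit of all groups, a replicate block and the omission of each mouse. The procedure was tested on simulated data. All 10 ligands are named, and other genes come from lists, from the calls within them or from the likeness measure. Not every receptor gene is reported here. The ligands and lists were chosen with earlier results of these data known. Positions are from GENCODE vM21, in which 93.0% of symbols were found. Each test measures the spread between mice, and count floors cover counting error only.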

Additional observations from a re-analysis of the deposited data

Results flagged for a closer look

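In groups of 4 to 10 mice, the highest or lowest value was set against the others by Dixon's ratio, the gap to the nearest mouse over the range of the group on the log2 CPM scale, against its 95% critical value for 4 mice. Ccl3 in IP mice gave 0.881, from IP mouse 1, which was high (log2 CPM 9.13 against 7.61 to 7.79, or 561.5 CPM against 194.5 to 220.6). Ccl5 in IP mice gave 0.972, from IP mouse 2, which was low (log2 CPM 1.36 against 4.07 to 4.14, or 2.45 CPM against 16.6 to 17.5). The groups of 2 could not be tested, and chance alone flags about 1 in 20 groups.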

How the results depend on the processing

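The results were computed again under 14 alternatives for IP against DMSO and for IS against IP mice and 13 for IS against DMSO mice. Among IP and DMSO mice, Ccl12 was called lower under 13 of 14 and Ccl24 under 8, and Ccl2 and Ccl7 were lower but never called. Among IS and DMSO mice, Ccl4 was called higher under 11 of 13 and Ccl3 under 7. There Ccl9 and Ccl24 were each called lower under 7 of 13 and Ccl12 under 6. Scaling by library size alone moved the median of all genes by -0.15 on the log2 scale in the IS comparison and by -0.11 in IS against IP mice. It made 196 calls higher and 429 lower in IS against DMSO mice, in place of 268 and 323, turned Ccl6 to -0.12 and Ccr1 to -0.16, and ended the call of Ccl3 (0.93).

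For IP against DMSO mice, genes at an adjusted p under 0.05 numbered 10 with the likelihood ratio test and 19 with DESeq2, and with all 3 groups in 1 fit 160 genes and 1 ligand were called. For IS against DMSO mice, genes at an adjusted p under 0.05 numbered 10 with no filter, 179 with the likelihood ratio test, 107 with DESeq2 and 4 with all groups in 1 fit. Ligands called there numbered 5 with no filter and with DESeq2 (Ccl12, Ccl9 and Ccl24 lower beside Ccl3 and Ccl4) and 4 with the likelihood ratio test. For IS against IP mice, genes at an adjusted p under 0.05 numbered 265, 234 and 2 with the likelihood ratio test, DESeq2 and all groups in 1 fit. The causes were not tested.

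The labels give same-numbered mice only a number in common, and their deviations were correlated at -0.15 to 0.09 over 11353 genes. In groups of 2 the deviations of the mice mirror each other, so this cannot exclude a shared block. With a replicate block, 19 genes in IS against DMSO and 1 in IS against IP mice had an adjusted p under 0.05, and in IS against IP mice 391 genes and 1 ligand (Ccl8) were called. In IP against DMSO mice the block, which draws on IP mice 1 and 2 alone, called 330 genes, 152 of them higher. The block turned Ccl5 in IP mice to -0.42, Ccr1 in IS mice to -0.05 and Ccl3 in IS against IP mice to -0.055, and ended the calls of Ccl24 in IP and Ccl3 in IS mice. The crossed pairing, added after seeing the data, called 475 genes and 4 ligands in IS against DMSO mice, 2 genes having an adjusted p under 0.05, with Ccr1 again at -0.05.

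With each mouse left out in turn, the ligands called numbered 0 to 3 in IP against DMSO, 0 to 5 in IS against DMSO and 0 to 1 in IS against IP mice. All genes called numbered 116 to 361, 113 to 3432 and 632 to 2115, and those at an adjusted p under 0.05 numbered 0 to 0, 0 to 2407 and 0 to 138. The high counts came without an IS mouse, where the lone IS mouse is taken to vary like the other group. Differences that changed sign ranged, in IP against DMSO mice, from -2.74 to 0.29 for Ccl24 and from -0.37 to 2.42 for Ccr7. In IS against DMSO mice they ranged from -0.71 to 0.26 for Ccl8, from -0.24 to 0.36 for Ccl6, from -0.48 to 0.34 for Ccr1, from -0.26 to 0.17 for Ccr2 and from -1.75 to 0.067 for Ccr3. In IS against IP mice they ranged from -0.21 to 0.64 for Ccl2, from -0.019 to 1.18 for Ccl8, from -0.49 to 0.96 for Ccl12, from -0.26 to 0.73 for Ccl3, from -0.26 to 0.93 for Ccl4, from -0.48 to 0.82 for Ccl5, from -1.44 to 0.40 for Ccl24 and from -0.11 to 0.68 for Ccr1.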
